A study of Mus musculus with 6 samples.

Results

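The genes that lie beside Nod1 on mouse chromosome 6 were examined in fetal aortic arteries. The neighbourhood was taken as every non-control array probe whose smaller mm9 coordinate lay from 53000000 to 57000000 on chromosome 6, leaving out Nod1 itself. This gave 85 probes with 55 gene names, of 55681 non-control probes with 34797 names on the whole array. The rest of chromosome 6 held 3037 probes with 1887 names. Membership was decided by position alone and used no measured value. RNA from C57BL/6 fetuses was hybridised to 1-colour (Cy3) Agilent arrays, with 3 arrays for Nod1 -/- fetuses and 3 for Nod1 +/- fetuses. The design text calls the fetuses littermates, and all came from Nod1 -/- dams mated with Nod1 +/- males. Every dam had received 500 µg of FK565, a synthetic NOD1 ligand, under the skin on embryonic day E18.5, and fetal aortas were collected 6 h after the injection. No group without the ligand or with Nod1 +/+ fetuses was analysed here.

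NOD1 is a cytosolic sensor of a fragment of bacterial peptidoglycan. It signals through the kinase RIPK2 to NF-kB and so to chemokine and adhesion-molecule genes. A gene inactivated by targeting in embryonic stem cells keeps, after backcrossing, a stretch of stem-cell chromosome on both sides of the altered gene. Neighbours of a targeted gene therefore often travel with it as 1 block, and their sequence can differ between homozygous and heterozygous littermates. The stem-cell strain, the number of backcrosses and the deleted part of Nod1 are not given in the sources used here. Nod1 genotype and any such flanking stretch cannot be told apart in this design, because every Nod1 -/- fetus would carry both.

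All values below are log2 signals relative to the array's own 75th percentile, so 0 is the level of a fairly bright probe. Differences are Nod1 -/- minus Nod1 +/-, and a positive difference means a higher signal in Nod1 -/- aortas. A probe entered the test when at least 3 of the 6 arrays, of either genotype, showed it well above background, and adjusted p-values come from limma with Benjamini-Hochberg adjustment over all 30166 tested probes. The threshold was an adjusted p of 0.05. The labels do not say whether each array held the RNA of a single fetus, so the spread that the p-values rest on may be technical. With 3 arrays a genotype, precision is limited by their number.

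Signals of 5 inflammatory genes, chosen as likely responders to the ligand, differed between the genotypes. Their mean (Saa3, Sele, Ccl2, Icam1 and Nfkbia) was -1.46 to -0.85 on Nod1 -/- arrays and 4.06 to 4.60 on Nod1 +/- arrays. All 5 were lower in Nod1 -/- aortas. Sele was well above background on 0 Nod1 -/- arrays, so its level there, and with it the mean, is only a bound. Without a group that lacked the ligand, the response itself was not measured. The single Nod1 probe did not separate the genotypes. It read 3.20, 3.19 and 3.35 on Nod1 -/- arrays and 3.15, 3.20 and 3.78 on Nod1 +/- arrays, a difference of -0.13 (95% interval -0.59 to 0.33, adjusted p = 0.659). It lies at chr6:54874007-54874066 on the reverse strand, and whether that stretch lies inside the deleted part is not given in the sources used here, so it checks nothing about the genotype. Smooth muscle markers, which define the wall of an aorta, averaged 5.87 to 6.13 in Nod1 -/- and 5.90 to 6.24 in Nod1 +/- samples. Markers of neutrophils averaged 0.13 to 0.48 in Nod1 -/- and 2.10 to 2.67 in Nod1 +/- samples, and 6 of 10 were lower in Nod1 -/-. Skeletal muscle markers reached 6.05 on the array of Nod1 +/- replicate 1, against 1.56 to 2.23 on the other five. The share of probes well above background was 53.7% to 58.3% on Nod1 -/- arrays and 48.6% to 54.7% on Nod1 +/- arrays. All arrays shared 1 slide, where Nod1 -/- replicates 1 and 2 lay in row 1 and the other 4 arrays in row 2.

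Of the 85 neighbouring probes, 41 with 28 gene names were bright enough to be tested, and each of these was well above background on all 6 arrays. Most probes past the threshold were higher in Nod1 -/-. The set of 10 probes past the threshold was 24.4% of the 41, beside 15.9% of all tested probes and 15.4% of the 1469 tested probes elsewhere on chromosome 6. There were 9 probes higher in Nod1 -/- (22.0% of the 41, beside 9.12% of all tested probes). Only the probe named ENSMUST00000047462 was lower (2.44% of the 41, beside 6.82%). The higher probes belonged to Chn2, Wipf3, Scrn1, Fkbp14, Crhr2, Inmt and Aqp1. Their differences, and that of the lower probe, ranged from 1.57-fold to 3.64-fold. Signals of the 3 Nod1 -/- arrays and the 3 Nod1 +/- arrays did not overlap for 25 of the 41 probes (61.0%), beside 40.6% of all tested probes, and 20 of those 25 were higher in Nod1 -/-. Of those 25, 8 were overlapping or adjacent probes to a noncoding region. The median difference of the 41 probes was 0.16, beside 0.09 for all tested probes, with 29 positive. This tilt depends on genes with several probes. With 1 probe per gene name the median was 0.07 over 28 names, 16 of them positive, beside 0.0965 over the array. In that fit 9 of the 28 names passed, 7 higher and 2 lower in Nod1 -/- (32.1%, beside 18.7% of 21478 names), the added one being Ggct. The median absolute difference of the 41 probes was 0.27, beside 0.28 for all tested probes. Of the 41, 10 were probes to 1 noncoding region, with differences from 0.13 to 0.39, which are not separate measurements. They lower this median, so it does not give the typical size of a difference per gene here.

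**Figure D1:**
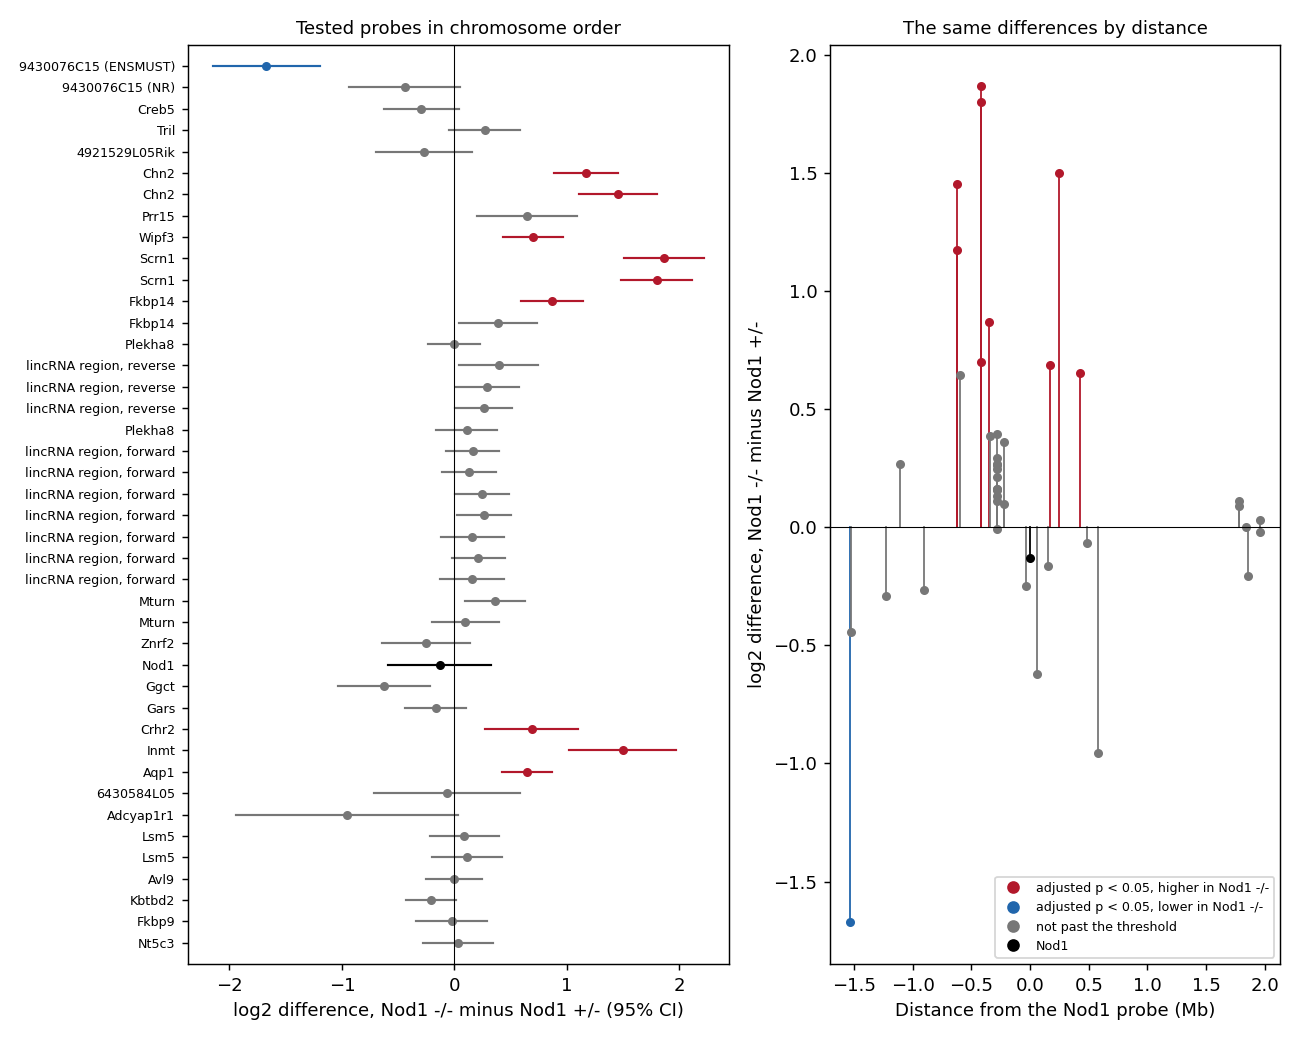
Difference in log2 signal (Nod1 -/- minus Nod1 +/-) of the 41 tested neighbouring probes and Nod1 (black), in chromosome order with 95% intervals on the left and against the distance from the Nod1 probe in Mb on the right, with red for probes higher and blue for probes lower in Nod1 -/- past the threshold. The 9 probes past the threshold on the upper side lie within 1 Mb of Nod1, and the 1 on the lower side, ENSMUST00000047462, lies 1530 kb before it.

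Pairs of probes to the same gene, where at least 1 of the pair passed the threshold, are shown by the first 30 of their 60 bases so that they can be compared, with Nod1's own probe. Each full sequence was present on the array under 1 probe name only. Positions are in mm9.
Scrn1, chr6:54455953-54456012, reverse strand: ggactgaacatgtggtcttaacagcctttt
Scrn1, chr6:54459194-54459253, reverse strand: aggtgggggacctattctatgactgtgtgg
Chn2, chr6:54250225-54250284, forward strand: atgttctgttttaatccaccagggaagtga
Chn2, chr6:54251148-54251207, forward strand: tgccgcatttccatatggatgaatcatgaa
Fkbp14, chr6:54527630-54527689, reverse strand: actttgactcctagctgctctctgtgtaat
Fkbp14, chr6:54529083-54529142, reverse strand: tgtgctagttcaaggcttgctattttcatg
ENSMUST00000047462, chr6:53344446-53344505, forward strand: gaaacaccctttgacagtgataatggagac
9430076C15Rik, chr6:53347149-53347208, forward strand: atgagcctgggcatgaactctggagatgtg
Nod1, chr6:54874007-54874066, reverse strand: ctcaaagcaaagcatggcacatacccacca
Genotypes at these bases were not measured. Where a gene had 2 probes, the values of both are given side by side.

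The largest difference was that of Scrn1, a gene listed here under protein turnover and folding. Of 6 genes listed under this role, 5 were tested, 2 were higher in Nod1 -/- and none was lower. Role counts, here and below, only regroup the calls of the neighbourhood, and roles were not compared. Over the array, 2366 of 21478 names were higher and 1646 lower in the fit with 1 probe per gene name. Scrn1 encodes secernin-1, a cytosolic protein named for its part in exocytosis from mast cells. Its probe at 54455953 read 2.23, 1.88 and 1.86 on Nod1 -/- arrays and 0.29, 0.02 and 0.07 on Nod1 +/- arrays. Every Nod1 -/- array stood far above every Nod1 +/- array, a difference of 1.87 ± 0.15 (SE, n = 3 each) or 3.64-fold, with an adjusted limma p of 0.00175. The other Scrn1 probe, 3241 bases away, read 1.80, 1.80 and 1.61 in Nod1 -/- and -0.04, 0.10 and -0.25 in Nod1 +/- samples. Its difference of 1.80 ± 0.13 (SE, n = 3 each), with an adjusted limma p of 0.00138, lay 0.07 from that of the first probe. Both Scrn1 probes passed the threshold under every alternative in which they were tested, with adjusted p-values up to 0.036, while the fit with 1 probe per gene held only the first.

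Fkbp14 encodes a peptidyl-prolyl isomerase of the endoplasmic reticulum that assists collagen folding. Its probe at 54527630 read 3.93, 4.05 and 3.76 on Nod1 -/- arrays and 3.01, 3.06 and 3.07 on Nod1 +/- arrays. The genotypes did not overlap, and the difference was 0.87 ± 0.11 (SE, n = 3 each), 1.83-fold, with an adjusted limma p of 0.00698. The second Fkbp14 probe, 1453 bases away and much dimmer, read -0.78, -0.69 and -0.74 in Nod1 -/- and -1.12, -0.88 and -1.37 in Nod1 +/- samples. It too had all Nod1 -/- arrays above all Nod1 +/- arrays, but its difference of 0.39 missed the threshold (95% interval 0.04 to 0.74, adjusted p = 0.119). The related isomerase Fkbp9 had a difference of -0.02 (95% interval -0.34 to 0.29). Kbtbd2, a substrate adaptor of a cullin ubiquitin ligase, read 3.06, 3.17 and 3.14 in Nod1 -/- and 3.32, 3.29 and 3.38 in Nod1 +/- samples. Its genotypes were apart by a difference of -0.21 that missed the threshold (adjusted p = 0.175). Znrf2, a membrane-bound ubiquitin ligase and the nearest tested gene before Nod1 at 34.9 kb, had a difference of -0.25 with overlapping genotypes (adjusted p = 0.318).

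In the group of actin and membrane-traffic genes all 4 listed genes were tested, 2 were higher in Nod1 -/- and none was lower. Chn2 encodes beta2-chimaerin, a diacylglycerol-binding protein that switches off the small GTPase Rac. Its probe at 54250225 read 0.05, 0.07 and -0.22 on Nod1 -/- arrays and -1.17, -1.18 and -1.27 on Nod1 +/- arrays. The probe 923 bases further along read -2.11, -2.11 and -2.09 on Nod1 -/- arrays and -3.33, -3.52 and -3.82 on Nod1 +/- arrays. The genotypes were well apart on both probes, with differences of 1.17 ± 0.12 and 1.45 ± 0.14 (SE, n = 3 each), 2.25-fold and 2.74-fold, and adjusted limma p-values of 0.00334 and 0.00309. The size at the dimmer, second probe depends on the background correction, and was 0.63 after normexp correction. Another Chn2 probe, 78 kb before these, was not well above background on any array.

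Wipf3 encodes a WASP-interacting protein of the actin cytoskeleton. It read 0.12, 0.08 and 0.23 in Nod1 -/- and -0.69, -0.46 and -0.52 in Nod1 +/- samples. The genotypes did not overlap, with a difference of 0.70 ± 0.11 (SE, n = 3 each), 1.62-fold, and an adjusted limma p of 0.0118. The Wipf3 probe ends 2207 bases before the first Scrn1 probe, on the opposite strand. Plekha8, a lipid-transfer protein of the Golgi, had differences of -0.01 and 0.11 at its 2 probes. Avl9, of the late secretory pathway, had a difference of 0.00 (95% interval -0.25 to 0.25).

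Among cell-surface receptors and channels 4 of 5 listed genes were tested, 2 were higher in Nod1 -/- and none was lower. Aqp1 encodes the water channel of endothelium and red cells. Its probe at chr6:55298480-55298539 read 4.26, 4.19 and 4.23 on Nod1 -/- arrays and 3.56, 3.55 and 3.63 on Nod1 +/- arrays. The arrays of each genotype lay within 0.09 of one another and the genotypes were 0.65 ± 0.09 apart (SE, n = 3 each), 1.57-fold, with an adjusted limma p of 0.0089. Endothelial markers averaged 1.44 to 1.64 in Nod1 -/- and 1.07 to 1.35 in Nod1 +/- samples, with 1 of 6 higher in Nod1 -/-. Red cell markers averaged 3.59 to 4.25 in Nod1 -/- and 2.63 to 3.35 in Nod1 +/- samples, and none of the 6 tested passed the threshold. Their part in the Aqp1 difference was not tested, and in bulk tissue fewer cells of a type and less RNA per cell cannot be told apart.

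Crhr2 encodes a receptor for urocortins, which relax blood vessels. It read -1.49, -1.38 and -1.21 in Nod1 -/- and -2.23, -2.20 and -1.72 in Nod1 +/- samples. The genotypes did not overlap and differed by 0.69 ± 0.17 (SE, n = 3 each), 1.61-fold, with an adjusted limma p of 0.0442. This call was the least stable in the neighbourhood. It was lost in 10 of 19 alternatives, among them the removal of any array but Nod1 +/- replicate 3. The adjusted p was 0.0905, 0.128 and 0.105 when Nod1 -/- replicates 1, 2 and 3 were left out in turn, and 0.122 and 0.12 when Nod1 +/- replicates 1 and 2 were. Its difference was 0.45 after normexp correction. Adcyap1r1, the receptor for the neuropeptide PACAP, was the most uneven gene of the group. It read -1.13, -2.28 and -2.79 in Nod1 -/- and -0.99, -1.04 and -1.31 in Nod1 +/- samples. Nod1 -/- replicate 1 lay among the Nod1 +/- arrays, and the difference of -0.95 missed the threshold (95% interval -1.95 to 0.04, adjusted p = 0.161). Without that array the difference was -1.42 with an adjusted p of 0.024. Markers of neurons and glia were likewise highest on Nod1 -/- replicate 1 among the Nod1 -/- arrays, at 1.88 against 0.41 and -0.24, with 0.32, -0.88 and -1.28 on Nod1 +/- arrays, and their part was not tested. Tril, a co-receptor of Toll-like receptors, had a difference of 0.27 (adjusted p = 0.205).

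Of 6 genes of metabolism, nucleotides and translation 5 were tested, and Inmt alone passed, as higher in Nod1 -/-. Inmt encodes a methyltransferase for indolethylamines such as tryptamine. Its probe at chr6:55120770-55120829 read -0.86, -1.25 and -1.60 on Nod1 -/- arrays and -2.82, -2.70 and -2.69 on Nod1 +/- arrays. The Nod1 -/- arrays were spread over 0.74, yet the lowest stood 1.08 above the highest Nod1 +/- array, and the difference was 1.498 ± 0.20 (SE, n = 3 each), 2.83-fold, with an adjusted limma p of 0.00723. After normexp correction it was 0.93. Fibroblast markers averaged 6.38 to 6.44 in Nod1 -/- and 6.15 on every Nod1 +/- array, with 2 of 6 higher in Nod1 -/-, and their part in this difference was not tested.

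Ggct, the nearest tested gene after Nod1 at 61.8 kb, encodes gamma-glutamylcyclotransferase of glutathione turnover. It read 0.02, 0.03 and -0.11 in Nod1 -/- and 0.46, 0.95 and 0.40 in Nod1 +/- samples. The genotypes did not overlap, but the difference of -0.62 ± 0.17 (SE, n = 3 each) missed the threshold with an adjusted limma p of 0.055. Ggct passed in 5 of 19 alternatives. Gars, the glycyl-tRNA synthetase, had a difference of -0.17 (95% interval -0.44 to 0.10). Lsm5, a subunit of the ring complex that binds U6 RNA, had differences of 0.09 and 0.11 at probes 109 bases apart. Nt5c3, a pyrimidine nucleotidase of red cells, had a difference of 0.03. The 3 tested genes flanking Nod1 on its right side, Ggct, Gars and Crhr2, had differences of -0.62, -0.17 and 0.69.

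**Figure D2:**
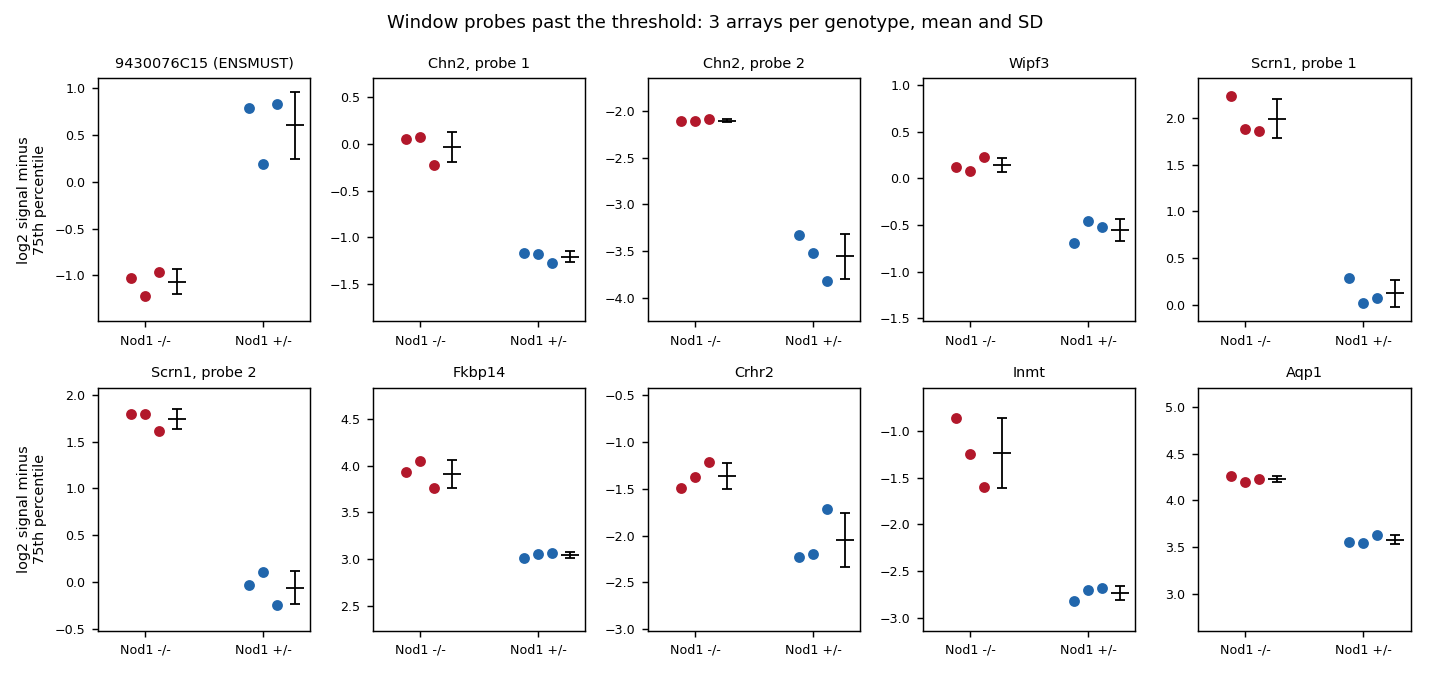
Log2 signal relative to the array's 75th percentile on each array for the 10 neighbouring probes past the threshold, Nod1 -/- (red) to the left of Nod1 +/- (blue), 1 point per array with the mean and SD of 3 arrays beside them. In all 10 the 3 arrays of each genotype do not overlap, and ENSMUST00000047462 alone is lower in Nod1 -/-.

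Of 3 transcription-factor genes listed, Jazf1 had no probe among the members, Neurod6 was below background, and Creb5, a CREB-family activator that binds cyclic AMP response elements, was tested. Creb5 read 5.44, 5.08 and 5.44 in Nod1 -/- and 5.66, 5.50 and 5.69 in Nod1 +/- samples, among the brightest signals of the neighbourhood. Its difference of -0.29 missed the threshold (adjusted p = 0.194). The lower probe, ENSMUST00000047462, lies 301 kb before this Creb5 probe on the same strand. The array describes it as the RIKEN gene 9430076C15Rik, a name that RefSeq lists as a synonym of Creb5. It read -1.03, -1.22 and -0.96 in Nod1 -/- and 0.79, 0.19 and 0.83 in Nod1 +/- samples. The genotypes were at least 1.15 apart and differed by -1.67 ± 0.20 (SE, n = 3 each), 3.19-fold lower in Nod1 -/-, with an adjusted limma p of 0.00531. The second probe of that name, 2703 bases further along, read 0.08, -0.09 and 0.12 in Nod1 -/- and 0.54, 0.07 and 0.83 in Nod1 +/- samples. Its genotypes overlapped and its difference of -0.44 missed the threshold (adjusted p = 0.185). The 3 probes shared a sign but spanned -1.67 to -0.29, so the size of the change depends on the probe read.

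Genes of little-studied function showed no call in the reported fit. Prr15, a proline-rich protein, read 0.51, 0.60 and 0.38 in Nod1 -/- and -0.29, 0.23 and -0.38 in Nod1 +/- samples. The genotypes did not overlap and the difference was 0.64 ± 0.18 (SE, n = 3 each), with an adjusted limma p of 0.0623. Prr15 passed the threshold in 5 of 19 alternatives. It lies 29 kb beyond the second Chn2 probe. The 2 probes of 2410066E13Rik, now named Mturn, gave 0.36 and 0.10 (adjusted p = 0.0751 and 0.600). The transcripts 4921529L05Rik and 6430584L05 had differences of -0.27 and -0.07, both with overlapping genotypes.

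Long noncoding regions were covered by 21 probes in the neighbourhood. Of these 10 were tested, all from overlapping regions at Plekha8, and all 10 had a positive difference short of the threshold. The 7 forward-strand probes ranged from 0.13 to 0.27 and the 3 reverse-strand probes from 0.26 to 0.39. These probes all lie within 1430 bases and some overlap one another, so they are not separate measurements. Among the tested members 5 probes overlapped a neighbour on the same strand. Without the 10 region probes the tested members would be 31, of which the same 10 passed.

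The 44 neighbouring probes that were not tested were dim, with 36 of them well above background on no array, 6 on 1 array and 2 on 2 arrays. They included 5 vomeronasal receptor genes (Vmn1r4 to Vmn1r8), which are expressed in sensory neurons of the nose, Ghrhr, the receptor for growth-hormone-releasing hormone, the neural factor Neurod6, and Pde1c, a calmodulin-dependent phosphodiesterase. Vmn1r probes read -6.95 to -5.26 in Nod1 -/- and -6.59 to -5.86 in Nod1 +/- samples, which is near the floor of these arrays. The dim probe with the lowest adjusted p was ENSMUST00000138767, at chr6:54097061-54097120 on the reverse strand. It read -4.53, -3.66 and -4.28 in Nod1 -/- and -5.93, -6.43 and -6.55 in Nod1 +/- samples, and was well above background on 2 Nod1 -/- arrays and no Nod1 +/- array. When all probes were tested without the filter it was the 1 of these 44 past the threshold (adjusted p = 0.0291). Its level in Nod1 +/- is only a bound. It is singled out here after its values were seen.

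Arranged along the chromosome, the 9 higher probes lay within 1 Mb of Nod1, but most tested probes lay there too. Of the 41 tested probes, 26 lay under 0.5 Mb from Nod1, and 10 of those 26 were probes to the noncoding region. Of the 26, 7 passed the threshold, all higher in Nod1 -/-. Over the array 15.9% of tested probes passed, and 9.12% were higher. Of 5 probes from 0.5 to 1 Mb 2 passed, both of Chn2 and both higher. Of 10 probes beyond 1 Mb 1 passed, and it was lower. Before Nod1 7 of 28 tested probes passed and after it 3 of 13. The higher probes did not form 1 unbroken run, however. Between Fkbp14 and Crhr2 lie Plekha8, the noncoding region, 2410066E13Rik, Znrf2, Nod1, Ggct and Gars, with differences from -0.62 to 0.39 and no call. Beyond Adcyap1r1 the next 6 tested probes, Lsm5 to Nt5c3, had differences of -0.21 to 0.11. A distance trend was not tested.

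The densest stretch ran from Wipf3 to 2410066E13Rik, at 54453687 to 54649856. Of its 19 tested probes, 10 were those of the noncoding region, which are not separate measurements. The stretch had a median difference of 0.26, beside 0.09 for all tested probes. In it 4 of the 19 passed as higher, beside 9.12% of all tested probes. The pair of stretches beside it, from Chn2 to Prr15 and from Znrf2 to Inmt, held 3 and 5 tested probes with 2 higher in each. Just outside the neighbourhood, the nearest tested probe on the left was TC1611769 at 52995924, with a difference of 0.30 (adjusted p = 0.271), where ENSMUST00000047462 was the first inside. On the right the nearest was Ppm1k at 57456890, with 0.13 (adjusted p = 0.468), where Nt5c3 was the last inside.

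Chromosome 6 was then divided into windows of 4 Mb on a grid that holds 53 to 57 Mb. With at least 20 tested probes required, 26 other windows could be set beside it. The share of probes past the threshold here, 24.4%, was exceeded in 5 of the 26, whose shares ran from 6.9% to 30.3% with a median of 15.4%. The share higher in Nod1 -/-, 22.0%, was exceeded in 3 of the 26. The median absolute difference of 0.27 was exceeded in 19 of the 26, and the largest absolute difference, 1.87 for Scrn1, in 9 of the 26. The 41 probes here include the 10 of the noncoding region, none of them past the threshold. Those 10 lower both the share and the median absolute difference of this window, so these 2 ranks depend on them. By gene name, 8 of 28 had a call here. By these measures the neighbourhood of Nod1 stood in the upper part of the chromosome for the share of calls, but other windows far from Nod1 matched or exceeded it. The window from 133 to 137 Mb had 20 of 66 probes past the threshold, and that from 21 to 25 Mb had 8 of 28, all higher in Nod1 -/-.

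The 2 windows that adjoin it had similar shares but another mix of directions. From 49 to 53 Mb 16 of 62 tested probes passed, 5 higher and 11 lower in Nod1 -/-. From 57 to 61 Mb 5 of 21 passed, 3 higher and 2 lower. A narrower window of 2 Mb, from 54 to 56 Mb, had 9 of 30 probes past the threshold (30%), all higher in Nod1 -/-. Its 30 probes include the 10 of the noncoding region. Of 33 other 2 Mb windows with at least 20 tested probes 2 had a larger share and none a larger share of higher probes. That rank depends on the cut-off of 20, since some smaller windows had larger shares of higher probes. Among them, 42 to 44 Mb had 6 of 18 (33.3%) and 22 to 24 Mb had 5 of 16 (31.2%), all higher in Nod1 -/-. A wider window of 8 Mb, from 51 to 59 Mb, had 20 of 88 (22.7%), and 2 of 17 others had a larger share. Those 88 probes also include the 10 of the noncoding region.

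**Figure D3:**
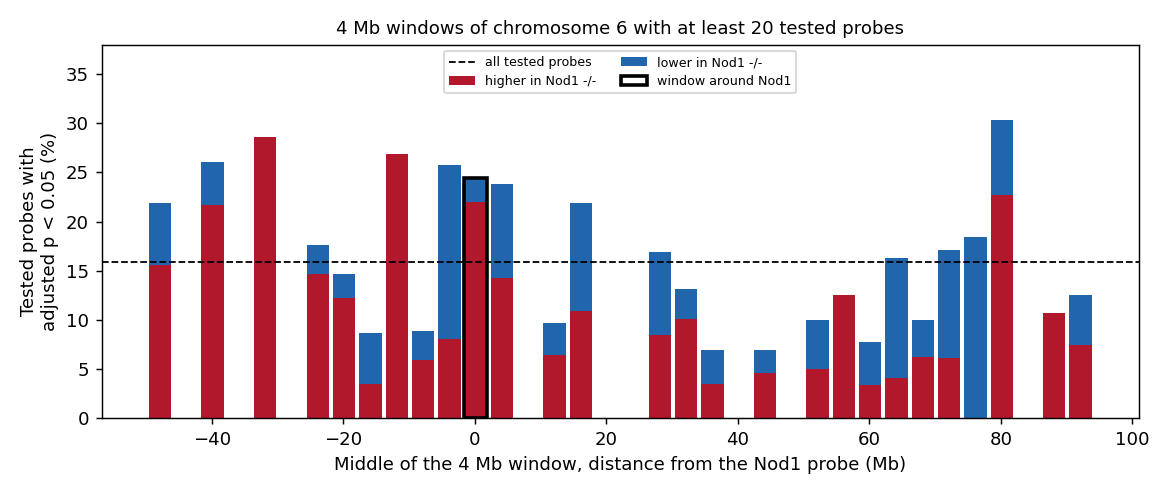
Share of tested probes past the threshold in consecutive 4 Mb windows of chromosome 6 with at least 20 tested probes, as bars from 0, against the distance of the window's middle from Nod1 in Mb, with the part higher in Nod1 -/- in red and the part lower in blue, and a dashed line at the 15.9% of all tested probes. The window that holds Nod1 has 24.4%, and 5 of the 26 others are above it.

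Among the neighbouring probes, removing 1 array gave 9 to 11 calls, though not always of the same probes. Crhr2 was lost in most removals, and Adcyap1r1, Prr15 or a noncoding-region probe passed in some. The count over all 30166 probes varied more. It was 2086 and 1517 when Nod1 -/- replicate 1 or 2 was removed, and 2374 and 2381 when Nod1 +/- replicate 1 or 2 was removed. The share over the array then ranged from 5.03% to 13.9% over the 6 removals. A fit that blocked on slide row compared 1 array, Nod1 -/- replicate 3, with the Nod1 +/- arrays, and assumed that this array varies like the others, since the spread came from the row 1 pair and the Nod1 +/- arrays. In it 4 of the 41 probes passed (9.76%, beside 3.79% of all tested probes), those of Scrn1 and Chn2. The other six kept their sign, with adjusted p-values of 0.0519 for Inmt, 0.0612 for ENSMUST00000047462, 0.0636 for Fkbp14, 0.0673 for Wipf3, 0.0732 for Aqp1 and 0.139 for Crhr2. Without the first replicate of both genotypes, 3 probes remained, those of Scrn1 and the second Chn2 probe. When every probe was tested without the filter on dim signals, Aqp1, Wipf3 and Crhr2 missed the threshold, with adjusted p-values of 0.0617, 0.0663 and 0.145.

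**Figure D4:**
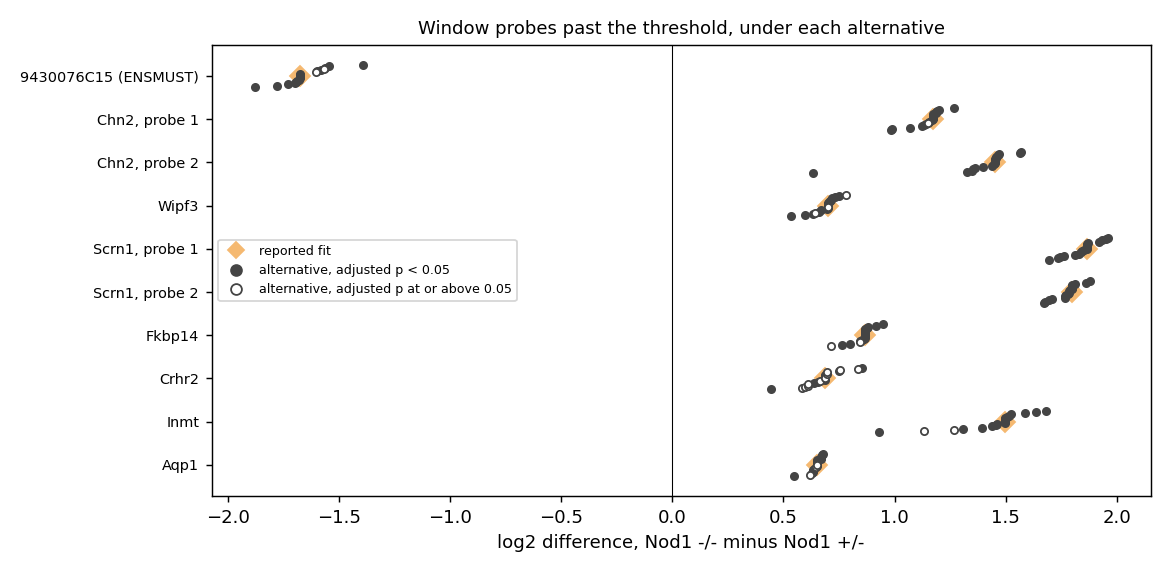
Difference in log2 signal (Nod1 -/- minus Nod1 +/-) of the 10 probes under the reported settings (diamonds) and under each alternative (small points, filled when the adjusted p was under 0.05 and open otherwise). Every point keeps the sign of its diamond. Both Scrn1 probes and the second Chn2 probe stay past the threshold in every alternative in which they were tested.

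Promoters of the neighbouring genes were read from RefSeq on GRCm38.p6, as 250 bases before to 50 bases after each gene's start. Because NOD1 acts through NF-kB, GGNNNTTCC, a shortened form of the NF-kB consensus, was searched on both strands, and TGACGTCA was searched as the cyclic AMP response element. GGNNNTTCC was present in 4 of 29 promoters of tested neighbouring genes (13.8%) and in 0 of 11 promoters of the 7 genes that were higher in Nod1 -/-, beside 6070 of all 32851 promoters. The 4 promoters with a match were those of 4921529L05Rik, Kbtbd2, Fkbp9 and Nt5c3. TGACGTCA was present in 2 of the 29 (6.9%), a Creb5 promoter and that of Mturn, and in 0 of the 11, beside 1.79% of all promoters. The lower probe ENSMUST00000047462 matched no current symbol and is not among the 11. If it is counted under Creb5, one of whose promoters holds TGACGTCA, that 0 no longer holds. A match is a description of letters and does not show that a factor binds, and its absence says only that these letters are not in this window. The 3 promoters below belong to Scrn1, with the largest difference, and to Inmt and Aqp1, the pair of genes after Nod1 with the smallest adjusted p-values, and show how their base makeup differs. Capitals mark CG pairs.
Scrn1, chr6:54566333-54566632, reverse strand: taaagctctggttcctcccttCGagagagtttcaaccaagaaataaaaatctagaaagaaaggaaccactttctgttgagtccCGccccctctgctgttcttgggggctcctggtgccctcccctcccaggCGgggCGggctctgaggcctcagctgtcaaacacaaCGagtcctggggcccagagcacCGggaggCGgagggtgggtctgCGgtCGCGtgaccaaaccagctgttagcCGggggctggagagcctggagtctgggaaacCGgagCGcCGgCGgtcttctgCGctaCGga
Inmt, chr6:55174941-55175240, reverse strand: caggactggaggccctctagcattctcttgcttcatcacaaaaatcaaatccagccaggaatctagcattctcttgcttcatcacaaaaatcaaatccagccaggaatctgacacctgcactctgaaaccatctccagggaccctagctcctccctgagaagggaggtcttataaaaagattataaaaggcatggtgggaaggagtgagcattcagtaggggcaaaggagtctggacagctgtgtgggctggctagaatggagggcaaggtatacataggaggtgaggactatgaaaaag
Aqp1, chr6:55336049-55336348, forward strand: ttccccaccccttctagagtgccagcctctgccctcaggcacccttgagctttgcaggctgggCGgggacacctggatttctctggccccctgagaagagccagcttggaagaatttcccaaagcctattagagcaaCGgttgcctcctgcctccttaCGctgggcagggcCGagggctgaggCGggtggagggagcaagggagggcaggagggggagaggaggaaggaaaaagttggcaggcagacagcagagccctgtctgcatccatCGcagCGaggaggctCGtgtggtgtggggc
CG pairs numbered 17 in the Scrn1 promoter, 0 in that of Inmt and 8 in that of Aqp1, beside a median of 7 over all promoters. Neither searched motif was present in any of these 3 promoters. Whether promoter sequence bears on the differences was not tested.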

How the data were processed

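Genotype labels set the groups. The deposited scanner files hold linear intensity values per spot, from which Agilent's program had already subtracted background. Per the file headers this was Feature Extraction 10.7.1.1, where the submitters' processing notes give 9.5.1.1. The value table deposited by the authors is also in intensity units, with a median of 33.4 in every column, and served as an alternative. Control and outlier spots were dropped (saturated spots did not occur). Processed signals were put on the log2 scale, spots of a probe averaged, and each array's 75th percentile subtracted. Of 55681 probes 134 lacked a usable spot, and 30166 were well above background on at least 3 arrays and were tested. The normexp alternative adds an offset of 50, which by construction shrinks differences of dim probes.

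Genotypes were compared at probe level with limma 3.58.1 in R 4.3.3 (with version 1.17.8 of data.table), and plots drawn with matplotlib 3.10.9. The procedure was also run on simulated data with independent noise on each array. That run held no slide-row or replicate effects, so it does not bear on how those affect the calls. Named genes were those past the threshold, the 3 nearest tested genes on each side of Nod1, the 6 largest differences short of the threshold, genes with several tested probes, and Nod1. Other members are named to account for all of them. The neighbourhood, the role and marker lists and these rules were chosen with earlier results of these data known. Gene names are the array's; 40 of the 55 matched a current RefSeq symbol. Probe positions are mm9 per the file headers. Exon positions in mm9 were not used here, and no probe is placed in an exon or UTR. Alternatives covered scaling, background, filter, model, blocks, window width and leaving out arrays.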

Additional observations from a re-analysis of the deposited data

How the results depend on the processing

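Of 633 pairs of a named probe and an alternative, 582 kept both direction and side of the threshold, 23 lost a call, 14 gained one and 14 changed sign. The sign changes were all in probes with no call. With median scaling, which moved the median over all probes to -0.02 from 0.09, the array had 3155 calls (1111 higher and 2044 lower in Nod1 -/-, beside 2752 and 2058), the neighbourhood had 9, and the signs of 2410066E13Rik (-0.0047) and Lsm5 (-0.015) turned. Without the filter the array had 1331 calls and the median over all 85 neighbouring probes was -0.12, which adds 44 dim probes. Array weights gave 7477 calls, the slide row as a block 1142 (4 in the neighbourhood) and Xist signal as a covariate 2587. With the slide row, Lsm5 stood at -0.027 and -0.043 and Plekha8 at 0.0025; Plekha8 was 0.017 with normexp, 0.017 with array weights and 0.0025 in the deposited table. The wider window of 51 to 59 Mb held 20 calls. Leaving out 1 array, or the first replicate of both genotypes (an alternative chosen after seeing the data), gave 580 to 4179 calls over the array, 3 to 11 in the neighbourhood, and a median there of 0.13 to 0.22. Over these fits Plekha8 ranged from -0.056 to 0.028, Nod1 from -0.24 to 0.0704, Lsm5 from -0.020 to 0.18 and 2410066E13Rik from -0.025 to 0.18. The deviations of same-numbered arrays from their genotype means correlated at 0.09, 0.285 and 0.107. Those of arrays with different numbers correlated at -0.308 to 0.134. These values do not settle whether the numbers mark pairs. The design text does not tie the numbers to litters, so they were not taken as pairs. With the replicate number as a block the array had 4508 calls and the neighbourhood 10, with a median of 0.16. The causes of these shifts were not tested, beyond the fewer arrays or the added dim probes.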
